A study of Mus musculus with 12 samples.

Results

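Eyelid tissue collected at 15h from mice on a high-fat diet was compared with tissue from mice on a standard diet. The comparison used 4 RNA-seq libraries of the 12 in the series: control replicates 2 and 3 and high-fat replicates 2 and 6, selected by their diet and time labels. Values per library are given in that order throughout, controls first where the text sets them against the high-fat libraries. All mice were male C57BL/6 animals, 6 to 8 weeks old at the start, given 1 week to adapt and kept under 12 h of light and 12 h of dark. The high-fat diet supplied 60% and the standard diet 10% of its energy as fat. The sample labels give 3 months on the diets and the series text gives 4 months, so the age at collection is not settled. The tissue is labelled meibomian gland, whereas whole eyelids, upper and lower, are described in the series text. The other 8 libraries, 2 for each diet at 9h and 21h, entered the fit as further estimates of the spread between replicates.

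The meibomian gland is a sebaceous gland of the eyelid whose cells, the meibocytes, fill with wax esters, cholesteryl esters and very long chain lipids and then disintegrate to release them onto the tear film. Interferons are cytokines that act through JAK kinases and transcription factors of the STAT and IRF families. The resulting complexes bind short sequence elements in promoters and switch on antiviral proteins, antigen processing and chemokines that attract lymphocytes.

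The libraries at 15h held between 14881739 and 15785016 reads assigned to genes, and the 12 libraries together spanned 14079167 to 17867469. At the depth of the 15h libraries, 1 read on a gene of 2 kb was worth 0.0316 to 0.0336 FPKM (fragments per kilobase of transcript, scaled to the library total). Markers of the gland were abundant: the stearoyl-CoA desaturase Scd1 was at 3684 and 3384 FPKM in the controls and 4799 and 4605 FPKM in the high-fat libraries. The wax synthase Awat2 was at 1019.9 and 885 against 1258 and 1128 FPKM. Markers of muscle, epidermis and connective tissue were also present, with Acta1 at 1329 and 925 FPKM in the controls and 863 and 847 FPKM in the high-fat libraries, Krtdap at 303 and 209 against 301 and 387, and Col1a1 at 133 and 126 against 51.0 and 129. The 2 high-fat libraries differed from each other by at least 2-fold on the log2(FPKM + 1) scale at 462 of 13228 genes (3.49%), against 87 genes (0.658%) between the controls at 15h and 97 to 240 genes in the other pairs. Results that rest on 1 of these high-fat libraries are given with and without it. Nothing in the labels tells a library of 1 mouse from a library of pooled mice, and p-values therefore reflect library-to-library spread, which may be technical.

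Of 21936 genes in the table, 13228 were above 1 FPKM in at least 2 of the 12 libraries and were tested with limma on log2(FPKM + 1). At a Benjamini-Hochberg adjusted p under 0.05, 8 genes (0.0605% of those tested) differed between the diets at 15h, all 8 lower on the high-fat diet (0.0605%), and 0 genes (0%) were higher. Without adjustment, 1531 genes had p under 0.05, of which 427 were higher and 1104 lower. After quantile normalization these became 835 higher and 882 lower. With so few libraries, 2516 genes (19%) had both high-fat values above both controls and 3532 (26.7%) had both below. The median log2 fold change of all genes was -0.03, and 43.3% of genes were above 0. These shares are the background for the gene lists described in the following paragraphs, since each list is read as a count of its own members beside them.

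The 8 called genes were Cxcr3, Bst2, Parp9, Rnase6, Morn2, Gm5431, Oas1a and Dhx58. In GENCODE release M21 of GRCm38, Bst2 (ENSMUSG00000046718) lies on chromosome 8, 71534255 to 71537456, minus strand, Oas1a (ENSMUSG00000052776) on chromosome 5, 120896256 to 120907521, minus strand, and Cxcr3 (ENSMUSG00000050232) on chromosome X, 101731535 to 101734269, minus strand. Bst2 (tetherin, which holds budding virus particles at the cell surface) was at 52.8 and 82.7 FPKM in the controls and 15.2 and 11.1 FPKM in the high-fat libraries. The diets did not overlap, and group means were 67.8 ± 21.1 and 13.2 ± 2.85 FPKM (SD, n = 2 each). The log2 fold change was -2.26 ± 0.24 (SE), with a limma adjusted p of 0.0378. Oas1a, a 2′-5′-oligoadenylate synthetase that activates RNase L, was at 16.1 and 22.3 FPKM in the controls and 4.29 and 1.53 FPKM in the high-fat libraries. Both high-fat values were far below both controls, although they differed between themselves. Its log2 fold change was -2.45 ± 0.32 (limma adjusted p = 0.0443).

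Dhx58 encodes LGP2, a helicase that modulates sensing of viral RNA. It was at 5.41 and 7.17 FPKM in the controls and 2.07 and 1.13 FPKM in the high-fat libraries, with no overlap, and fell by 3.93-fold in mean FPKM (log2 fold change -1.50 ± 0.19, limma adjusted p = 0.0443). Parp9, a partner of the ubiquitin ligase Dtx3l in interferon signalling, was at 14.1 and 18.8 against 7.10 and 6.82 FPKM. The high-fat libraries nearly coincided for this gene, and the log2 fold change was -1.12 ± 0.14 (limma adjusted p = 0.0412). Gm5431, a predicted gene, was at 3.26 and 3.57 FPKM in the controls and 0.727 and 0.626 FPKM in the high-fat libraries, again without overlap (log2 fold change -1.40 ± 0.17, limma adjusted p = 0.0412). Replicate 6 at 21h (1.34 FPKM) was its only high-fat library above 1 FPKM, so Gm5431 needed controls to pass the expression filter.

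Cxcr3, the receptor of activated T and natural killer cells for the chemokines Cxcl9, Cxcl10 and Cxcl11, had the smallest p of all genes. It was at 2.86 and 3.25 FPKM in the controls and 0.415 and 0.543 FPKM in the high-fat libraries, and between 11 and 89 reads lay behind these values. The log2 fold change was -1.46 ± 0.13 (limma adjusted p = 0.0159). Cxcr3 was under 1 FPKM in every high-fat library of the series and passed the expression filter only through controls. In tissue of mixed cells, fewer cells of a type and less RNA per cell cannot be told apart. Rnase6, a ribonuclease of myeloid cells, was at 2.34 and 2.73 FPKM in the controls and 0.538 and 0.730 FPKM in the high-fat libraries without overlap (log2 fold change -1.11 ± 0.14, limma adjusted p = 0.0412). Morn2 was at 5.78 and 4.92 against 2.59 and 2.25 FPKM, on 22 to 59 reads a library, and fell by 2.21-fold (log2 fold change -0.89 ± 0.11, limma adjusted p = 0.0412).

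**Figure D1:**
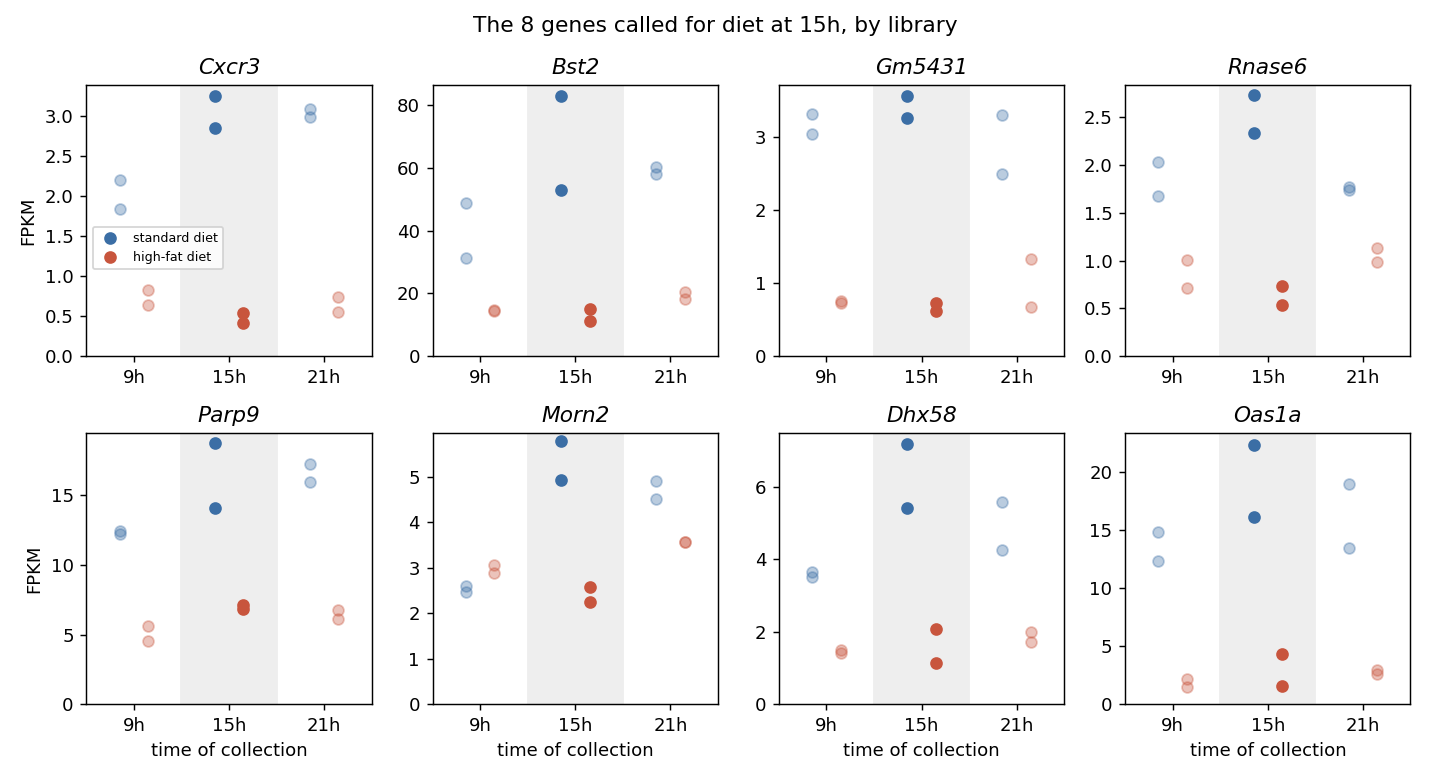
FPKM of the 8 genes called for diet at 15h, one panel per gene, with collection time on the x axis and one point per library (blue, standard diet; red, high-fat diet; the 15h libraries on grey). At 15h every control point lies above every high-fat point, and for Morn2 the 9h controls lie near the 15h high-fat points.

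The calls depended on the libraries used. Leaving out high-fat replicate 2 gave 72 calls (10 higher and 62 lower, the 8 genes among them), and leaving out high-fat replicate 6 gave 4 calls, with Cxcr3 shared. Leaving out control replicate 2 or 3 at 15h, or control replicate 1 or 2 at 21h, gave 0 calls, and leaving out any other library gave 1 or 2. Fitting the 4 libraries at 15h alone gave 0 calls and 1492 genes with p under 0.05 before adjustment. A limma-voom fit of recovered reads gave 0 calls and 1453 such genes.

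Promoter sequence was examined because the called genes and those with the largest negative differences included many interferon-induced genes, whose promoters are known for the interferon-stimulated response element. The letters GAAANNGAAA, or TTTCNNTTTC for the other strand, were searched for in the 250 bases before each start in the RefSeq promoters of GRCm38.p6 (32851 promoters of 27025 genes; overlapping copies count). Of 10468 tested genes with an entry, 349 (3.33%) held a match. Of the 6 called genes with an entry, 3 did: Bst2, Oas1a and Rnase6. Each stretch shown next covers 150 bases before the start, 5′ to 3′ on the strand of the gene, with the match in capitals. Bst2 and Oas1a are called genes with a match, and Cxcr3 is a called gene without one. Isg15, Gbp2 and Ifit1 each hold a match and are among the 8 genes with the largest negative differences. The stretches are a selection. The called genes Morn2 and Gm5431 held no match, nor did Irf7 and Ube2l6, and these are not shown.
Bst2 (chr8:71537473-71537622, minus strand): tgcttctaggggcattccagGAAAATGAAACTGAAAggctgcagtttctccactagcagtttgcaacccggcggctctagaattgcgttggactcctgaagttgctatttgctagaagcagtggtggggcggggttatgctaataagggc
Oas1a (chr5:120907526-120907675, minus strand): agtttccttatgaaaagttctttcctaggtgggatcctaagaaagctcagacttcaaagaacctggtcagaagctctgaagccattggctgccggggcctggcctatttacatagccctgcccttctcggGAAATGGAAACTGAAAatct
Isg15 (chr4:156200819-156200968, minus strand): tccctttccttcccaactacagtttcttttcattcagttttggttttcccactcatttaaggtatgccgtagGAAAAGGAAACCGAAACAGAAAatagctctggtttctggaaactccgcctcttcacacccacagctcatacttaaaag
Gbp2 (chr3:142620513-142620662, plus strand): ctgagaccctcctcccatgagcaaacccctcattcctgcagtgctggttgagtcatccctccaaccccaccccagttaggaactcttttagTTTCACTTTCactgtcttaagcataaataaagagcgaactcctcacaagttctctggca
Ifit1 (chr19:34640739-34640888, plus strand): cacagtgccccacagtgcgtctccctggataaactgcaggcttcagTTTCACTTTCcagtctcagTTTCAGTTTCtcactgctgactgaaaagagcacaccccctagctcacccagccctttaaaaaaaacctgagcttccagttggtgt
Cxcr3 (chrX:101734148-101734297, minus strand): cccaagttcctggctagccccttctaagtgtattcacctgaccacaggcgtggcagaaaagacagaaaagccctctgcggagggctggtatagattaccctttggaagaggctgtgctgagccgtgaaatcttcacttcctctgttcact

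By list, a match was held by 16 of 35 antiviral effectors with an entry (45.7%), 10 of 10 guanylate-binding proteins and immunity-related GTPases, and 5 of 14 nucleic acid sensors (35.7%). The immunoproteasome list held 0 of 5, the cholesterol list 1 of 18 (5.56%) and the ribosomal proteins 6 of 56 (10.7%). Of the genes at least 2-fold lower at 15h with libraries that did not overlap and a mean of at least 5 FPKM, 26 of 71 (36.6%) held a match. Of those at least 1.5-fold higher by the same criteria, 2 of 50 (4%) did. These are counts of letters in a window and say nothing of binding.

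The antiviral effectors, proteins that block steps of viral replication, were lower as a list: 40 of 41 tested members (of 46) were below 0, 39 had both high-fat libraries below both controls against 26.7% of all genes, and 2 passed the adjusted test (Bst2 and Oas1a). The median log2 fold change was -1.24. Ifi27l2a was at 198 and 357 FPKM in the controls and 67.1 and 28.1 FPKM in the high-fat libraries, a log2 fold change of -2.58 ± 0.40 with a limma adjusted p of 0.089. Ifit1, which binds viral RNA lacking host cap marks, was at 32.9 and 43.3 against 11.1 and 3.03 FPKM (-2.47 ± 0.47, adjusted p = 0.127). The controls were above the high-fat libraries for both, yet neither passed the adjusted test. Ifit3b (-2.07 ± 0.30, adjusted p = 0.0804), Trim30a (-1.53 ± 0.22, adjusted p = 0.0804) and Ifi44 (-2.12 ± 0.33, adjusted p = 0.089) came closest to the threshold after the called members. Ifitm1, a membrane protein that limits viral entry, had the smallest difference of the abundant members, at 417 and 494 FPKM against 221 and 410.5 FPKM. The Oas1, Ifit, Gbp, Slfn, Ifi27l2 and MHC class I genes have close copies, and how reads shared between copies were counted is not given, so values of single members are uncertain.

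Isg15, a ubiquitin-like protein that is attached to other proteins during the interferon response, had the largest negative difference among the named genes of at least 5 FPKM. It was at 97.98 and 125 FPKM in the controls and 23.4 and 5.44 FPKM in the high-fat libraries. The high-fat libraries differed widely from each other, and the log2 fold change of -3.15 ± 0.59 had a limma adjusted p of 0.127. The other members of its conjugation pathway lay below 0 as well: the activating enzyme Uba7 at -0.67, the conjugating enzyme Ube2l6 at -1.50, the ligase Herc6 at -1.05 and the deconjugase Usp18 at -1.49. All 5 had both high-fat libraries below both controls, and their median of -1.49 was -0.94 without high-fat replicate 6.

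Guanylate-binding proteins and immunity-related GTPases attack the vacuoles of intracellular microbes and respond mainly to interferon gamma. All 16 tested members (of 18) were below 0, 15 with libraries apart, and the median was -1.81. Of these members, 1 was above 1 FPKM in no high-fat library of the series and passed the expression filter only through controls. Gbp2 was at 106 and 188 FPKM in the controls and 37.3 and 12.3 FPKM in the high-fat libraries. Igtp was at 36.8 and 65.3 against 15.3 and 2.92 FPKM. Tgtp2 was at 9.81 and 16.3 against 3.26 and 0.388 FPKM. High-fat replicate 6 was the lower library for all 3. The smallest adjusted p of the list was 0.0804, for Gbp3 (-1.77 ± 0.26). The median was -2.41 without high-fat replicate 2 and -1.15 without high-fat replicate 6. Cytotoxic lymphocyte markers were also lower in both high-fat libraries, and their part in these values was not tested.

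Smaller interferon-linked families had the same sign. The 7 genes of the PARP list, which also holds the ubiquitin ligase Dtx3l, had a median of -1.02. They ran from Parp9 at -1.12 and Dtx3l at -1.06 to Parp11 at -0.28 and Zc3hav1 at -0.07. The 6 tested Schlafen genes (of 9) had a median of -1.04, all with libraries apart, with Slfn4 at -2.18 and Slfn2 at -1.13 (limma adjusted p = 0.0867). Slfn4, a gene of myeloid cells, was at 18.2 and 33.9 FPKM in the controls and 5.33 and 4.11 FPKM in the high-fat libraries.

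Upstream of these effectors the differences were smaller and uneven. The sensors of foreign nucleic acid had a median of -0.53 over 19 tested members (of 21), 13 of them with libraries apart and lower, and 1 (Dhx58) called. Zbp1, a sensor of Z-form nucleic acid, was at 15.7 and 23.6 FPKM in the controls and 5.79 and 2.07 FPKM in the high-fat libraries. The RNA sensors Ifih1 (-0.80) and Ddx58 (-0.79) were also lower in both high-fat libraries, whereas the adaptors Mavs (-0.13) and Myd88 (-0.15) were near 0. Receptors, STATs and interferon regulatory factors had a median of -0.25 over 23 genes, 10 of them (43.5%) with libraries apart and lower. The share of all genes apart and lower was 26.7%. The median of this list was -0.13 without control replicate 3. Irf7, the factor that amplifies type I interferon, was at 21.1 and 26.1 FPKM in the controls and 7.40 and 3.25 FPKM in the high-fat libraries (-2.03 ± 0.30, limma adjusted p = 0.0804). Stat2 (-1.27), Irf9 (-1.18), Irf1 (-1.10) and the feedback inhibitor Socs1 (-0.99) were lower in both high-fat libraries. The receptor chain Ifngr1 (-0.21) had libraries that overlapped.

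Genes that prepare peptides for display on MHC class I were lower as a list, with 18 of 19 apart and a median of -0.85. B2m, the light chain of every class I molecule, was at 2332 and 3288 FPKM in the controls and 1503 and 998 FPKM in the high-fat libraries. The heavy chain H2-K1 was at 607 and 799 against 452 and 328 FPKM. H2-D1 was at 606 and 771 against 411 and 342 FPKM. For all 3, high-fat replicate 6 was lowest. The peptide pump subunits Tap1 (-1.22) and Tap2 (-0.98) and the loading factor Tapbp (-0.72) were lower in both high-fat libraries. No member passed the adjusted test.

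The immunoproteasome replaces catalytic subunits of the constitutive proteasome when interferon is present. Its 5 genes had a median of -1.13, all with libraries apart. The 20 constitutive genes had a median of -0.07. Of these 20, 8 were apart and lower (40%, against 26.7% of all genes) and 2 apart and higher (10%, against 19%). Psmb8 was at 13.1 and 18.8 FPKM in the controls and 5.77 and 3.85 FPKM in the high-fat libraries. Psmb9 was at 14.6 and 23.6 against 7.86 and 3.36 FPKM. Psmb10 was at 28.2 and 37.6 against 15.8 and 13.0 FPKM. The regulator subunits Psme1 (-0.42) and Psme2 (-0.49) differed less than these catalytic subunits. Psmb4, a constitutive subunit, was at 103 and 96.5 FPKM in the controls and 99.0 and 95.5 FPKM in the high-fat libraries, which overlapped.

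MHC class II genes present peptides to helper T cells. Both high-fat libraries were below both controls for all 10 tested members (of 11), with a median of -1.09 and none called. Of these members, 1 was above 1 FPKM in no high-fat library of the series and passed the expression filter only through controls. Cd74, the invariant chain, was at 336 and 412 FPKM in the controls and 134 and 159.5 FPKM in the high-fat libraries (limma adjusted p = 0.139). H2-Aa (-1.33), H2-Ab1 (-1.34) and H2-Eb1 (-1.34) had nearly the same difference. Ciita, the master regulator of this locus, was at 2.32 and 3.03 against 0.910 and 1.29 FPKM. Here high-fat replicate 2 was the lower library for Cd74, Ciita and the 3 classical chains, unlike the GTPases.

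**Figure D2:**
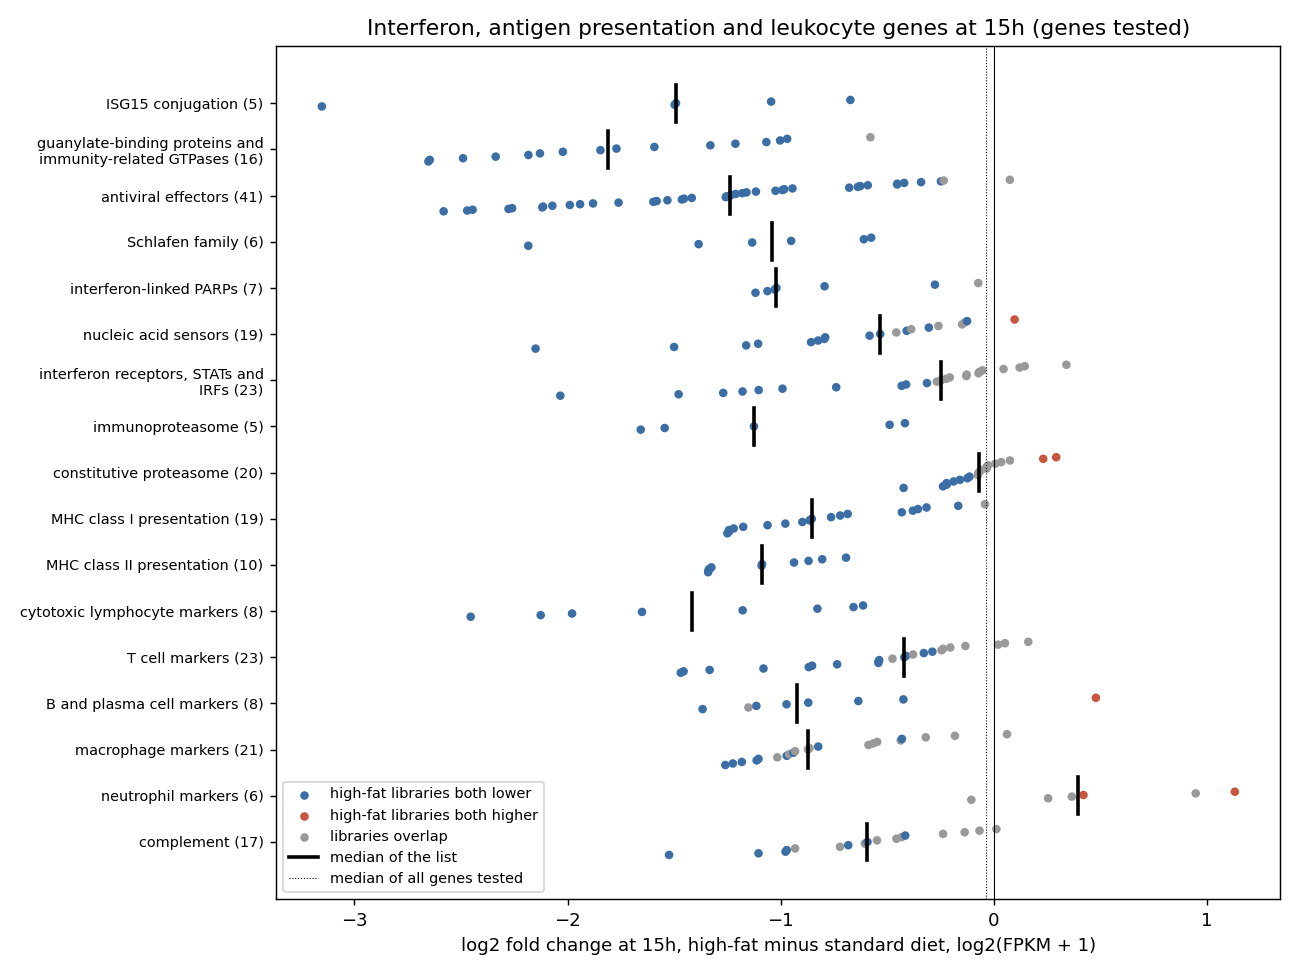
Log2 fold change at 15h, high-fat minus standard diet, of each tested gene (points) in 17 interferon, antigen presentation and leukocyte lists, with the list median as a bar and the number of genes in brackets. Blue points have both high-fat libraries below both controls. The medians run from -1.81 for the guanylate-binding proteins to 0.39 for the neutrophil markers, and the constitutive proteasome sits near the median of all genes.

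T cell markers were uneven. Of 23 tested (of 26), 14 had libraries apart and lower (60.9%, against 26.7% of all genes). The median was -0.42, and Cxcr3 was the called member. Cd8a was at 2.51 and 5.97 FPKM in the controls and 1.97 and 0.295 FPKM in the high-fat libraries. Cd8b1 was at 3.12 and 6.19 against 1.94 and 0.317 FPKM. The diets did not overlap for either CD8 chain, and high-fat replicate 6 was lowest. Cd2 (-1.08), Lck (-0.87) and Cd4 (-0.74) were lower in both high-fat libraries. Il7r, at 2.61 and 5.43 FPKM in the controls and 3.74 and 4.26 FPKM in the high-fat libraries, and the chemokine receptor Cxcr6, at 5.30 and 9.44 against 6.66 and 7.82 FPKM, overlapped between the diets. Thy1 (-0.24), which fibroblasts and nerves also carry, overlapped too. The median was -0.69 without control replicate 2 and -0.18 without control replicate 3, and 5 of the tested members were above 1 FPKM in no high-fat library of the series, against 0.892% of all genes.

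Cytotoxic lymphocyte markers were sparse: 8 of 16 were tested, while others, such as Prf1 and Tbx21, did not reach 1 FPKM in any library. The tested members had a median of -1.41 and all had libraries apart and lower, none called. Among them, 1 was above 1 FPKM in no high-fat library of the series and passed the expression filter only through controls. Gzma, a granule protease, was at 8.31 and 21.4 FPKM in the controls and 4.48 and 0.267 FPKM in the high-fat libraries. Gzmb was at 5.02 and 10.1 against 1.68 and 0.608 FPKM. The chemokine Ccl5 was at 9.85 and 22.9 against 3.40 and 2.097 FPKM. Control replicate 3 was the highest library for all 3, and the list median was -0.86 without it. Cxcl9 and Cxcl10, the interferon-induced ligands of Cxcr3, had log2 fold changes of -1.70 and -1.53, with Cxcl10 at 3.91 and 10.2 FPKM in the controls and 2.20 and 1.07 FPKM in the high-fat libraries.

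B and plasma cell markers had a median of -0.92 over 8 tested (of 11), 6 apart and lower (75%, against 26.7% of all genes). Cd79b, a chain of the B cell receptor, was at 2.97 and 2.56 FPKM in the controls and 0.821 and 0.657 FPKM in the high-fat libraries. All members but Jchain were under 5 FPKM. Of the 8, 4 were above 1 FPKM in no high-fat library of the series and passed the expression filter only through controls. Jchain, which joins secreted IgA and IgM, was at 51.1 and 104 FPKM in the controls and 53.8 and 19.2 FPKM in the high-fat libraries, which overlapped. Blk, a kinase of B cells, went the other way, at 2.29 and 2.91 against 3.27 and 4.85 FPKM.

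Macrophage markers depended on 1 library. Their median was -0.87, but -0.10 without high-fat replicate 2 and -1.42 without high-fat replicate 6. Summed over the 21 genes, the level was 1228 and 1626 FPKM in the controls and 410.0 and 1309.8 FPKM in the high-fat libraries, so that replicate 6 lay between the controls and replicate 2 far below. Lyz2, a lysozyme, was at 678 and 913 FPKM in the controls and 205 and 736 FPKM in the high-fat libraries. C1qa was at 92.1 and 125 against 26.6 and 90.8 FPKM. High-fat replicate 6 was close to the lower control for both genes. Rnase6 (called) and Aif1, at 5.67 and 7.52 FPKM in the controls and 2.17 and 2.28 FPKM in the high-fat libraries, were low in both. Complement genes had the same pattern, with a median of -0.59, -0.09 without high-fat replicate 2 and -1.24 without replicate 6. C7, of the membrane attack complex, was low in both high-fat libraries, at 27.2 and 18.1 FPKM in the controls against 6.27 and 7.97 FPKM (-1.52 ± 0.25, limma adjusted p = 0.106). In mean log2 level against the controls, antiviral effectors lay at -1.10 and -1.49 in high-fat replicates 2 and 6. Macrophage markers lay at -1.42 and -0.13. The part of macrophages and other leukocytes in the interferon genes was not tested for either library.

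Dendritic cell markers had a median of -0.53 over 10 tested (of 12), 6 apart and lower (60%, against 26.7% of all genes). Of the 10, 2 were above 1 FPKM in no high-fat library of the series and passed the expression filter only through controls. Ccl22, a chemokine for regulatory T cells, was at 6.53 and 6.88 FPKM in the controls and 2.86 and 3.26 FPKM in the high-fat libraries. Cd209a was at 8.61 and 9.27 against 3.50 and 5.72 FPKM. Both high-fat libraries were below both controls for these genes. Langerin (Cd207), of epidermal Langerhans cells, overlapped between the diets (0.08). The median was -0.31 without high-fat replicate 2.

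Neutrophil markers were high in 1 of the 4 libraries at 15h. Their sum was 81.4 and 68.8 FPKM in the controls and 58.1 and 269 FPKM in the high-fat libraries, and the median over 6 tested (of 12) of 0.39 became 1.44 without high-fat replicate 2 and -0.42 without high-fat replicate 6. S100a8 was at 5.75 and 5.74 FPKM in the controls and 4.33 and 30.7 FPKM in the high-fat libraries. Ltf, lactoferrin, which gland epithelium also makes, was at 37.5 and 32.7 against 15.3 and 131 FPKM. High-fat replicate 6 was far above, and replicate 2 below, both controls. On the standard diet the neutrophil sum reached 369 FPKM in replicate 2 at 9h and 518 FPKM in replicate 1 at 21h, both above that library. Chemokines and cytokines had a median of -0.37 over 32 tested (of 34), which was 0.13 without high-fat replicate 2, -0.62 without high-fat replicate 6 and -0.22 without control replicate 3. Il15 was at 2.96 and 3.61 FPKM in the controls and 1.90 and 1.90 FPKM in the high-fat libraries.

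Genes of cholesterol synthesis and uptake were slightly higher as a list, none called. Of 26, 25 were above 0 against 43.3% of all genes, 18 had both high-fat libraries above both controls against 19%, and the median was 0.27. Pmvk, phosphomevalonate kinase, was at 95.2 and 98.7 FPKM in the controls and 127 and 213 FPKM in the high-fat libraries. Idi1, the isomerase, was at 55.6 and 60.3 against 68.4 and 117 FPKM. High-fat replicate 6 was the highest library for both, and Pmvk and Idi1 were among the 10 genes called higher when high-fat replicate 2 was left out. Hsd17b7, a sterol reductase of the same pathway, was at 52.4 and 48.5 FPKM in the controls and 75.6 and 79.5 FPKM in the high-fat libraries (0.61 ± 0.16, limma adjusted p = 0.223). Insig1, the sterol-sensing brake on this pathway, was at 77.4 and 74.9 against 118 and 105 FPKM. The list median was 0.37 without high-fat replicate 2 and 0.17 without high-fat replicate 6.

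Enzymes of wax and cholesteryl esters, a large share of meibum, had a median of 0.33 over 13 tested (of 17). Of these 13, 11 had libraries apart and higher (84.6%, against 19% of all genes). Abca12, a lipid transporter of keratinocytes, was at 4.53 and 3.59 FPKM in the controls and 7.71 and 7.34 FPKM in the high-fat libraries (0.76 ± 0.15, limma adjusted p = 0.128). Far1, which reduces fatty acids to the alcohols of wax esters, was at 74.4 and 69.4 against 95.9 and 98.5 FPKM (0.43 ± 0.10, limma adjusted p = 0.188). Soat1, which esterifies cholesterol, was at 119.6 and 114 against 134 and 179 FPKM. In all 3 the libraries of the diets did not overlap. The wax synthases Awat1 (0.44) and Awat2 (0.33) had larger standard errors relative to their differences.

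Medians were near 0 for cholesterol efflux genes (-0.005, 5 above 0 and 6 below) and for glycerolipid acyltransferases and lipins (0.03, 10 above and 8 below). Several other lipid lists had small medians of the same sign as the wax list. In these, members above 0 ranged from 12 of 19 for fatty acid synthesis and desaturation to 10 of 11 for uptake, against 43.3% of all genes. Elongation of very long chains had a median of 0.20 over 16 tested, fatty acid synthesis and desaturation 0.19 over 19, meibocyte markers 0.26 over 18, fatty acid uptake 0.37 over 11 and fatty acid oxidation 0.16 over 26. Without high-fat replicate 6 the meibocyte median was 0.11, without control replicate 3 it was 0.17, and without high-fat replicate 2 the oxidation median was 0.27. Cers3, a ceramide synthase for the longest acyl chains, was at 15.9 and 17.1 FPKM in the controls and 20.9 and 22.2 FPKM in the high-fat libraries. Elovl4 was at 1288 and 1154 against 1578 and 1529.8 FPKM. Scd1 had a log2 fold change of 0.41 ± 0.26 (limma adjusted p = 0.581). Ffar4, a receptor for long chain fatty acids, was at 4.18 and 5.24 against 7.36 and 9.48 FPKM. Adipocyte markers had a median of -0.12 (-0.06 to -0.20 with 1 library left out), with Adipoq at 2.79 and 2.79 FPKM in the controls and 2.46 and 3.30 FPKM in the high-fat libraries.

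Outside the lists, the 12 higher genes with the smallest p had limma adjusted p from 0.128 to 0.188. They included Ide, the insulin-degrading enzyme, at 35.2 and 31.5 FPKM in the controls and 50.3 and 46.9 FPKM in the high-fat libraries. Slc46a2 was at 20.5 and 19.5 against 34.5 and 36.3 FPKM. Eppk1, a plakin of epithelial keratin networks, was at 5.77 and 6.28 against 9.33 and 12.0 FPKM. The diets did not overlap for any of them, and none passed the adjusted test.

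Immediate early genes, which are switched on within minutes of a stimulus, were high in 1 of the 4 libraries at 15h. Fos was at 10.2 and 10.7 FPKM in the controls and 11.4 and 101 FPKM in the high-fat libraries. Fosb was at 0.608 and 0.355 against 0.826 and 27.7 FPKM. Egr1 was at 15.3 and 14.6 against 18.3 and 72.2 FPKM. Dusp1 was at 22.9 and 33.4 against 36.8 and 156 FPKM. High-fat replicate 6 stood far above the other 3 libraries for each of these 4 genes. Summed over the list, the level was 672 and 669.6 FPKM in the controls and 711 and 1652 FPKM in the high-fat libraries. The list median was 0.57, 0.04 without high-fat replicate 6 and 1.04 without replicate 2. High-fat replicate 6 at 21h was higher still, with a sum of 1969.7 FPKM, Fos at 162 FPKM and Egr1 at 116 FPKM. Egr3, at 38.1 and 30.7 FPKM in the controls and 49.8 and 51.1 FPKM in the high-fat libraries, was higher in both.

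Core clock genes had a median of 0.13 over 18 tested, with 9 apart and higher (50%, against 19% of all genes). The median was 0.07 without high-fat replicate 2 and 0.25 without high-fat replicate 6. Control replicates 2 and 3 gave 0.07 and 0.24 when left out. Rora, a nuclear receptor that activates Bmal1, was at 13.9 and 12.1 FPKM in the controls and 22.6 and 19.2 FPKM in the high-fat libraries. Rora was higher in both high-fat libraries. Per1, which glucocorticoids also induce, was at 7.18 and 13.4 against 17.1 and 32.6 FPKM, with replicate 6 highest. The outputs Dbp, at 22.8 and 22.7 FPKM in the controls and 26.3 and 10.8 FPKM in the high-fat libraries, and Tef, at 26.9 and 26.8 against 31.7 and 18.5 FPKM, were above the controls in high-fat replicate 2 and below them in replicate 6. The glucocorticoid target list had a median of 0.23, which was 0.02 without high-fat replicate 6, 0.46 without high-fat replicate 2 and 0.14 without control replicate 2.

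Cornification genes, which build the dead outer layer of the epidermis, were high in the other high-fat library. The list had 31 of 32 members above 0, against 43.3% of all genes. Only 6 had libraries apart and higher (18.8%, against 19% of all genes). The list median of 0.53 became -0.18 without high-fat replicate 2 and 1.43 without replicate 6. It was 0.89 and 0.20 without control replicates 2 and 3. Kprp, a proline-rich keratinocyte protein, was at 4.31 and 2.69 FPKM in the controls and 14.4 and 5.83 FPKM in the high-fat libraries. Dsc1, a desmosomal cadherin, was at 18.7 and 14.3 against 37.1 and 16.1 FPKM. Lce1g, of the late cornified envelope, was at 2.09 and 0.479 against 11.01 and 2.68 FPKM. High-fat replicate 2 was the highest library for all 3. Tgm1, the transglutaminase that cross-links the envelope, was at 14.2 and 12.1 FPKM in the controls and 16.3 and 19.1 FPKM in the high-fat libraries and was higher in both.

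**Figure D3:**
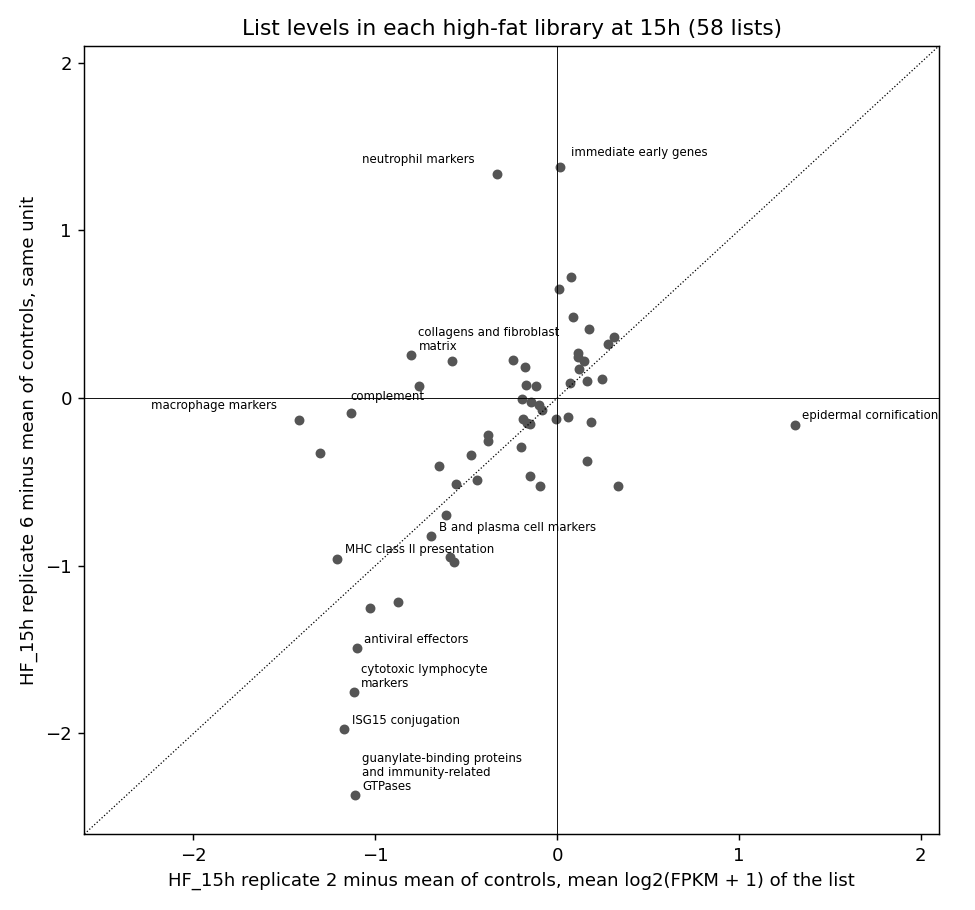
Mean log2(FPKM + 1) of each of 58 gene lists in high-fat replicate 2 (x axis) and high-fat replicate 6 (y axis), each minus the mean of the 2 controls at 15h, one point per list. Antiviral effectors lie at -1.10 and -1.49, macrophage markers at -1.42 and -0.13, immediate early genes at 0.02 and 1.38, and cornification genes at 1.31 and -0.16.

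The plot of list levels in the 2 high-fat libraries shows which lists were displaced alike in both. Interferon, antigen presentation and cytotoxic lists were low in each, and cholesterol and wax genes slightly high in each. Also low in each (replicate 2, then 6) were ribosomal (-0.38 and -0.26), respiratory chain (-0.38 and -0.22) and cell cycle genes (-0.20 and -0.29). So were T cell (-0.56 and -0.51) and B and plasma cell markers (-0.69 and -0.82). However, 5 of 23 T cell and 4 of 8 B and plasma cell members passed the expression filter only through controls, against 0.892% of all genes. Low high-fat values are partly built into these 2 lists. Macrophage, complement, neutrophil, immediate early and cornification lists took their difference mainly from 1 library.

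Short genes were lower on the high-fat diet at 15h across the whole table. By merged exon length, the median log2 fold change was -0.23 for 495 genes under 1 kb, -0.17 for 1598 genes of 1 to 2 kb, -0.08 for 4113 genes of 2 to 4 kb, -0.01 for 4882 genes of 4 to 8 kb and 0.06 for 2136 genes over 8 kb. Both high-fat libraries had this order, from -0.19 to 0.09 in replicate 2 and from -0.28 to 0.05 in replicate 6. At 9h the same medians ran from -0.01 to 0.06, and at 21h they lay between -0.03 and 0.02.

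**Figure D4:**
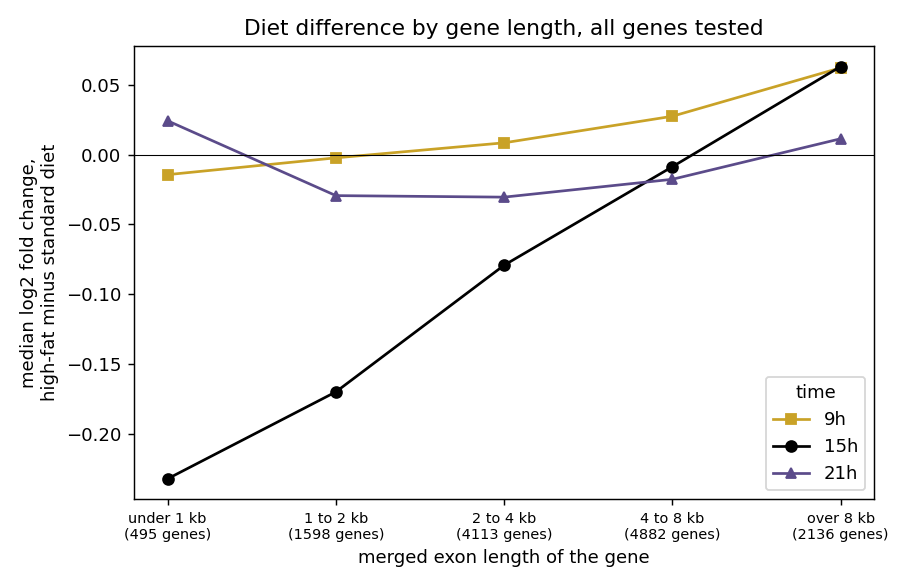
Median log2 fold change, high-fat minus standard diet (y axis), of all tested genes in 5 bins of merged exon length (x axis), one line per collection time. At 15h the median goes from -0.23 under 1 kb to 0.06 over 8 kb, a wider range than at 9h or 21h.

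Cytosolic ribosomal proteins, mostly short genes with a median exon length of 1781 bases, were lower at 15h. Of 77 tested, 75 were below 0 and 64 (83.1%) had libraries apart and lower, the median was -0.28 and none was called. Rps21 was at 284 and 302 FPKM in the controls and 152 and 195 FPKM in the high-fat libraries. Rpl35 was at 42.3 and 41.1 against 16.6 and 25.4 FPKM. Rplp0, one of the most abundant, was at 1304 and 1344 against 1270.0 and 1303 FPKM. The spread among the members was wide, from clear separation for Rps21 and Rpl35 to near equality for Rplp0. Nuclear genes of the respiratory chain, with a median exon length of 1756 bases, had a median of -0.26 and 32 of 53 (60.4%) apart and lower. Uqcrb was at 105 and 97.0 FPKM in the controls and 53.1 and 72.1 FPKM in the high-fat libraries. Ndufa5 was at 48.2 and 38.6 against 27.3 and 26.9 FPKM. Both high-fat libraries were below both controls for Uqcrb and Ndufa5. Genes of 1 to 2 kb as a whole had a median of -0.17 and 44.4% apart and lower, against 26.7% of all genes. The part of length in both lists was not tested. After quantile normalization the ribosomal median was -0.14. Among the interferon genes, Bst2 has 903 bases of exon, Isg15 756 and B2m 860, with log2 fold changes of -2.26, -3.15 and -1.18 beside the -0.23 of all genes under 1 kb. The antiviral effectors had a median exon length of 2702 bases and a median log2 fold change of -1.24, against -0.08 for all genes of 2 to 4 kb. The part of length in the interferon genes was not tested either.

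Cell cycle genes were slightly lower, all 35 below 0 and 27 with libraries apart (77.1%, against 26.7% of all genes). Their median was -0.23. Rrm2, which with its partner makes deoxyribonucleotides, was at 9.56 and 9.52 FPKM in the controls and 7.18 and 7.14 FPKM in the high-fat libraries. Tyms, thymidylate synthase, was at 3.44 and 3.50 against 2.15 and 2.37 FPKM. Neither gene had overlapping diets, and the difference was small in both. NRF2 antioxidant targets had a median of -0.21 over 22, -0.10 without high-fat replicate 6 and -0.12 without control replicate 3. Nqo1, a quinone reductase, was at 13.0 and 25.2 FPKM in the controls and 10.3 and 9.46 FPKM in the high-fat libraries. Gstm1, a glutathione transferase, was at 85.0 and 87.8 against 66.6 and 55.8 FPKM, whereas Hmox1 was at 35.6 and 35.1 against 39.5 and 53.9 FPKM.

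Skeletal muscle genes summed to 6679 and 5283 FPKM in the controls and 4702 and 3599 FPKM in the high-fat libraries, against 4055 to 9647 FPKM over the other 8 libraries, so that high-fat replicate 6 was the lowest of the 12. The median over 30 tested (of 35) was -0.22, -0.36 without high-fat replicate 2, -0.12 without high-fat replicate 6, -0.42 without control replicate 3 and -0.06 without control replicate 2. Pvalb, the calcium buffer of fast fibres, was at 661 and 643 FPKM in the controls and 395 and 176 FPKM in the high-fat libraries. Actn3, of the fast-fibre Z disc, was at 112 and 87.9 against 74.4 and 39.8 FPKM. Cox8b and Cox6a2, the muscle isoforms in the respiratory list, were also lower in both high-fat libraries. Cox8b was at 77.7 and 70.5 FPKM in the controls and 29.9 and 41.6 FPKM in the high-fat libraries. Cox6a2 was at 150.3 and 120.1 against 75.04 and 80.4 FPKM. The part of muscle content in them was not tested.

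The diet difference at 15h was set against the mean of the differences at 9h and 21h, which have controls of their own. No gene (0%) passed the adjusted test: the smallest limma adjusted p was 0.924, 676 genes had p under 0.05 before adjustment, and the limma-voom fit called 0 with 632 such genes. Antiviral effectors had a median of -1.24 at 15h, -1.04 at 9h and -1.17 at 21h. ISG15 conjugation genes had -1.49, -1.06 and -1.31. MHC class I had -0.85, -0.74 and -0.88, and MHC class II -1.09, -0.64 and -0.82. These lists were below 0 at all 3 times. Bst2 was -2.26 at 15h, -1.37 at 9h and -1.57 at 21h, and Cxcr3 was -1.46, -0.80 and -1.30.

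B and plasma cell markers had -0.92 at 15h, -0.25 at 9h and -0.13 at 21h, with an unadjusted p under 0.05 for the difference in 1 of 8. Ribosomal proteins had -0.28, 0.14 and -0.04, with such a p in 22 of 77, all lower, against 3.43% of all genes. Cornification genes had 0.53, -0.09 and -0.86, with such a p in 4 of 32, all higher, against 1.68% of all genes. The 15h median changes sign without high-fat replicate 2. At 21h the mean log2 level of these genes was 5.22 and 3.46 in control replicates 1 and 2. It was 3.14 and 3.09 in high-fat replicates 3 and 6, so control replicate 1 stood far above the rest. Cholesterol genes had 0.27 at 15h and 0.31 at 21h, against 0.02 at 9h, with such a p in 1 of 26. At 9h the high-fat libraries lay on both sides of the controls. The sums were 3099 and 3417 FPKM in the controls and 2621 and 3954 FPKM in the high-fat libraries. Of single genes, Morn2 had the smallest p, at -0.89 at 15h, 0.17 at 9h and -0.32 at 21h. Enho, which encodes adropin, was at 7.86 and 7.13 FPKM in the controls and 3.09 and 2.75 FPKM in the high-fat libraries at 15h, a log2 fold change of -1.12 against 0.12 at 9h and 0.15 at 21h. Myoc, myocilin, was at 64.5 and 56.8 against 29.0 and 40.9 FPKM at 15h, with -0.80 against 0.57 and 0.37.

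**Figure D5:**
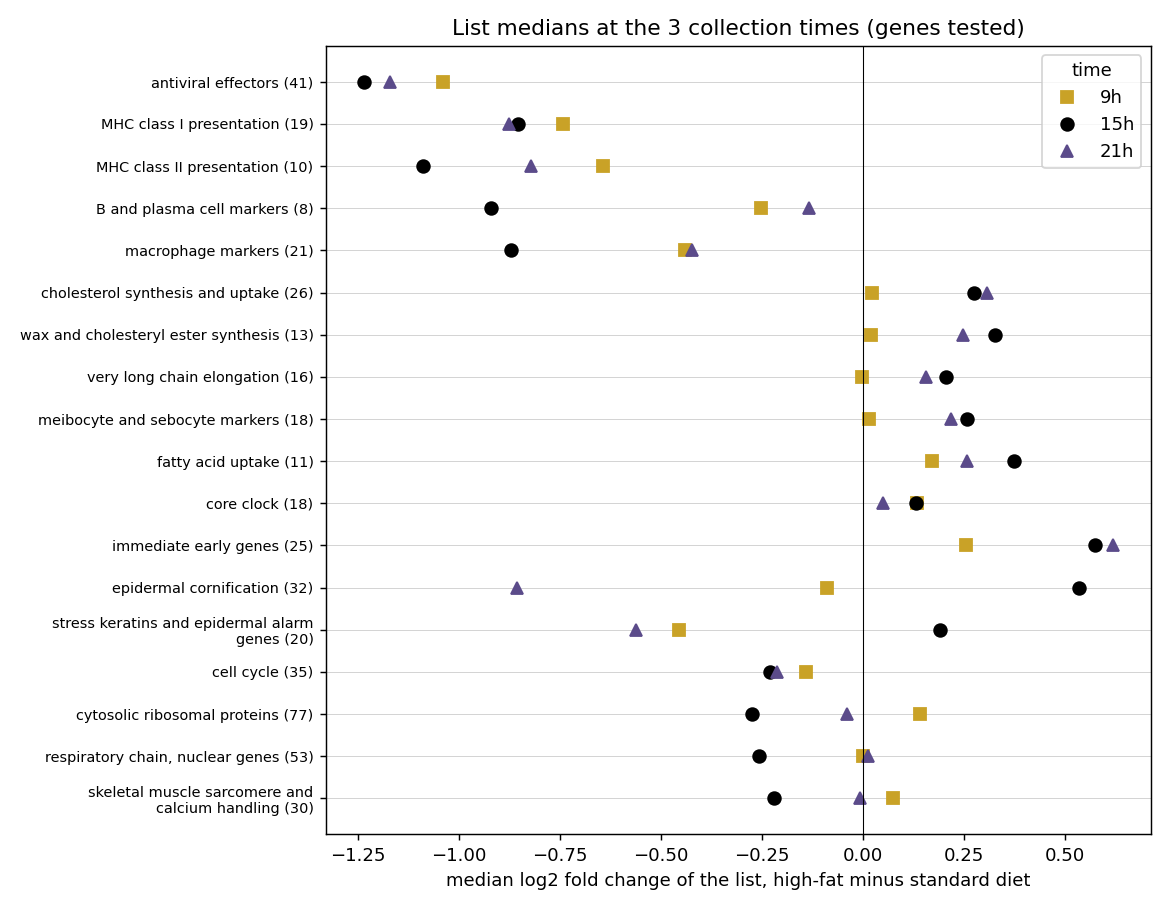
Median log2 fold change, high-fat minus standard diet (x axis), of 18 gene lists (y axis, with the number of genes tested) at 9h (squares), 15h (circles) and 21h (triangles). The antiviral and MHC class I medians are below -0.7 at all 3 times, and the cornification median is 0.53 at 15h and -0.86 at 21h. At 21h the mean log2 level of cornification genes was 5.22 in control replicate 1 and 3.46 in control replicate 2.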

How the data were processed

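Per the labels' protocols, RNA was extracted with Trizol and libraries were made with NEBNext Ultra II. Per the submitters' processing notes, tools included the aligner HISAT2 2.0.5, the counter HTSeq 0.9.1 and the package DESeq 1.30.0, with mm9 as build. For the strand setting, annotation release and FPKM step, no value is given in the sources used here. The authors deposited 1 table of FPKM values for 21936 genes by 12 libraries; 21894 gene IDs were found in GENCODE M21 (GRCm38), whose merged exon lengths gave whole reads (within 0.02) for 97.9% of values under 60 reads, and library totals are sums of these recovered reads.

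From the deposited FPKM, values were taken as log2(FPKM + 1), and genes above 1 FPKM in at least 2 libraries were fitted with limma 3.58.1 in R 4.3.3 (1 mean for each of 6 groups, 6 residual degrees of freedom, trended prior, Benjamini-Hochberg over 13228 genes). Fold changes on this scale understate those of low genes. The scripts were tested on simulated data. The comparison, the 58 gene lists and the tests were chosen with earlier results of these data known. Named genes were the called genes, the 12 with the smallest p in each direction whose libraries did not overlap, the 8 largest rises and falls of at least 5 FPKM, up to 6 members per list by p and 3 by level (short lists whole), and the 6 with the smallest p for 15h against the other times; a few genes under this rule are not reported here. Alternatives were the pseudocount, the filter, scaling, library weights, the prior, the libraries fitted and limma-voom on recovered reads.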

Additional observations from a re-analysis of the deposited data

Results flagged for a closer look

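For 3 of the 58 lists, both high-fat libraries lay on one side of both controls at 15h and on the opposite side at another time. The mean log2 level of the constitutive proteasome genes differed by -0.0712 (high-fat minus control) at 15h and by 0.04 at 21h. That of the glycerolipid acyltransferases and lipins differed by 0.0810 at 15h and by -0.11 at 9h. That of the NRF2 antioxidant targets differed by -0.16 at 15h and by 0.07 at 21h. The differences between times were not tested.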

How the results depend on the processing

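The 8 calls at 15h, all lower, became 2 with a pseudocount of 0.1 FPKM, 1 without the filter on low values (18451 genes tested), 0 with the 4 libraries at 15h alone, 5 after quantile normalization (4 shared), 1 with library weights and 0 with limma-voom on recovered reads; median-ratio scaling gave 9 (the 8 genes among them) and a prior without trend gave 7. Leaving out 1 library gave 0 to 72 calls, of which 0 to 10 were higher and 0 to 62 lower; the most came without high-fat replicate 2 at 15h, when the higher calls included Car2, Epop, Idi1, Pmvk, Pde4b, Nfil3, Atp12a, Slc26a9 and Idi2, named after their values were seen. The cause was not tested. The difference between 15h and the other times had 0 calls under each alternative that could be run, and the 4 libraries alone could not give it. None of the 8 called genes changed direction under any of these settings. Under the alternatives, 322 genes were followed, the named genes and the list members with p under 0.05. Of their values, 6271 kept their side of the threshold, 118 lost it and 51 gained it. Only the 8 called genes could lose it, so all 118 losses were theirs, and most of the 6271 belonged to genes not called. The median of all genes went from -0.03 to 0.00 with median-ratio scaling and to 0.02 with quantile normalization; no list median beyond 0.1 in size changed sign under either. No paired analysis was possible because the diets at 15h share only replicate number 2. For low genes depth limits the values: Cxcr3 rests on 11 to 89 reads a library.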

Other observations

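Collagens and fibroblast matrix genes were low in high-fat replicate 2 alone. They summed to 1252 and 1334 FPKM in the controls and 642 and 1297 FPKM in the high-fat libraries at 15h, and the median of -0.22 was 0.22 without high-fat replicate 2 and -0.82 without high-fat replicate 6. Col3a1 was at 112 and 131 FPKM in the controls and 47.7 and 141 FPKM in the high-fat libraries. Decorin (Dcn), a small proteoglycan that binds collagen, was at 349 and 346 against 184 and 257 FPKM and lower in both. Haemoglobin followed the same library, with Hbb-bs at 41.7 and 36.4 FPKM in the controls and 7.73 and 29.0 FPKM in the high-fat libraries.

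Secretory genes of the ocular surface and neighbouring glands varied between single libraries. Muc5ac, the gel-forming mucin of goblet cells, was at 9.83 and 9.60 FPKM in the controls and 12.7 and 42.9 FPKM in the high-fat libraries. The water channel Aqp5 was at 52.8 and 77.0 against 29.9 and 29.6 FPKM. The lysozyme Lyz1 was at 36.8 and 54.7 against 10.4 and 24.97 FPKM, both lower in both high-fat libraries. Obp1a, an odorant-binding protein of lacrimal gland, was at 8.33 and 29.1 FPKM in the controls and 11.9 and 9.40 FPKM in the high-fat libraries, and the lacrimal list median of -0.38 was 0.18 without control replicate 3 and -1.04 without control replicate 2. Ear2, an eosinophil-associated ribonuclease, was at 10.1 and 10.4 against 6.99 and 4.20 FPKM at 15h, a log2 fold change of -0.80 against 0.54 at 9h and 0.31 at 21h.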
